A study of Mus musculus with 6 samples.

Results

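The BCL2 family genes that set the balance between survival and death of a cell were followed across 6 RNA-seq libraries of mouse splenic B-cells. The 10 genes were taken by name: Bcl2, Bcl2l1, Mcl1 and Bcl2a1b, whose proteins block apoptosis, Bax and Bak1, whose proteins carry it out, and Bcl2l11, Bbc3, Pmaip1 and Bid of the BH3-only class, whose proteins start it. They are 10 of 46963 gene names in the count table, and all 10 were among the 14600 genes with enough counts to be tested.

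Each library holds total RNA of CD43- splenic B-cells, that is, spleen cells from which CD43-bearing cells had been removed. The mice were wt, Eμ-deficient, lacking the Eμ enhancer of the immunoglobulin heavy chain (IgH) locus with its matrix attachment regions, or 3′RR-deficient, lacking the regulatory region at the 3′ end of that locus, all on a 129 background, male and female, 8 to 12 weeks old. For each genotype 1 library came from resting cells without stimulation and 1 from cells cultured for 2 days with lipopolysaccharide (LPS), a bacterial surface molecule to which B-cells respond by dividing. LPS was used at 5 μg/ml according to the treatment label and the study's methods, but another label text gives mg in place of μg. By the labels the resting cells also spent 2 days in culture, whereas by the methods they were taken before stimulation, so that LPS and time in culture cannot be told apart. Each library is a pool of 2 mice, and with 1 library per genotype and state no difference between genotypes within a state has a replicate check.

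Apoptosis of the mitochondrial type is decided at the outer membrane of the mitochondrion. There BAX and BAK form pores that release cytochrome c, unless a BCL2-like protein holds them or their activators. The BH3-only proteins bind the BCL2-like proteins in a groove through a short helix, the BH3 segment, and some of them also activate BAX and BAK directly. Resting B-cells die within days without survival signals, in part through BIM, the product of Bcl2l11, and both BCL2 and MCL1 support mature B-cells. BCL-xL, the long product of Bcl2l1, and A1, the product of the Bcl2a1 genes, are known as survival proteins of activated B-cells. PUMA (Bbc3) and NOXA (Pmaip1) are best known as targets of p53, and BID links death receptors to the mitochondrion.

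The segment through which these proteins recognise each other is shown for its shared core. In the coding sequence of each of 8 members, 1 place encodes leucine, any 3 residues, glycine or alanine, and aspartate. Those 3 codons stand in capitals within 36 bases of coding sequence (GENCODE M21 gene models, GRCm38, 5′ to 3′ on the strand of the gene).
Bcl2 (chr1:106712575-106712610, minus strand): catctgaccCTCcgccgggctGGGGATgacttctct
Bcl2l1 (chr2:152829697-152829732, minus strand): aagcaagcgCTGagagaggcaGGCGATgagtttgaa
Mcl1 (chr3:95659427-95659462, plus strand): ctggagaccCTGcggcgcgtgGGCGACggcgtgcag
Bax (chr7:45465997-45466032, minus strand): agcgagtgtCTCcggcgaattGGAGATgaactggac
Bak1 (chr17:27022531-27022566, minus strand): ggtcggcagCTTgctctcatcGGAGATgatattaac
Bcl2l11 (chr2:128147141-128147176, plus strand): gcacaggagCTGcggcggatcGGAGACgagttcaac
Bbc3 (chr7:16313764-16313799, plus strand): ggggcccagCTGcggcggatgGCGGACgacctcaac
Bid (chr6:120897289-120897324, minus strand): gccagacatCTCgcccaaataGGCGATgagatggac
In 7 of these 8 segments the middle codon in capitals encodes glycine, and in Bbc3 it encodes alanine. Bcl2a1b had 0 matches to this pattern.

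The Bcl2a1 genes are near-identical copies on chromosome 9, which bears on every value of Bcl2a1b. The first 90 coding bases of Bcl2a1b and of its copies Bcl2a1a and Bcl2a1d are shown with the 6 positions at which they differ in capitals (GRCm38).
Bcl2a1a (chr9:88957051-88957140, plus strand): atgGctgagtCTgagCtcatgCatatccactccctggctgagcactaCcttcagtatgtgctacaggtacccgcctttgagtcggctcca
Bcl2a1b (chr9:89199360-89199449, plus strand): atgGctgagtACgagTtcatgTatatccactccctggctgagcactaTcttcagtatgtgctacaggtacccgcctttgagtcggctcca
Bcl2a1d (chr9:88731630-88731719, minus strand): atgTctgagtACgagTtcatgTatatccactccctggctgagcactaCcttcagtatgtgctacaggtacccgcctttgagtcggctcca
Over all 516 coding bases the copies differed at 12 positions, and of the stretches of 150 bases, the length of a read, in the Bcl2a1b transcript 14.2% also occurred in another copy. Since reads that map to several places were counted, reads of these copies can be shared between them.

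Between 9111974 and 21998587 counts per library fell on genes. Levels are given as CPM, counts relative to a common library size set by edgeR's TMM factors, with 95% Poisson intervals that cover counting error only. Spike-in RNAs, which name no mouse gene, gave a yardstick for technical spread: over 35 of them, the SD of the log2 ratio of 2 libraries was 0.13 to 0.78 for LPS over resting within a genotype, 0.44 and 0.48 for Eμ-deficient over wt, and 0.16 for 3′RR-deficient over wt in resting cells. It was 1.27 for 3′RR-deficient over wt with LPS, with single spike-ins between -2.60 and 2.17. Over the 5 pairs that a library forms with the others, the median SD was 0.86 for the LPS 3′RR-deficient library, 0.65 for the LPS wt library and 0.34 to 0.48 for the other 4. Results are therefore given without the LPS 3′RR-deficient library where they change. The LPS wt library was left out only together with the resting wt library, and only for the LPS effect. No genotype comparison was made without it. Scaling by the spike-in total in place of TMM lowers every log2 ratio of LPS over resting in wt by 0.79 and every ratio of resting Eμ-deficient over wt cells by 0.81, and raises every ratio of LPS 3′RR-deficient over wt cells by 0.55. The defining B-cell genes summed to 4752 to 6062 CPM in resting and 2666 to 3249 CPM in LPS libraries. A large part of this sum was Cd74, at 2520 to 3148 CPM in resting and 739 to 1020 CPM in LPS libraries. By the additive model described below, 2 of the 8 genes, Cd22 and Cd74, were called lower with LPS and 6 were not called. Markers of other cells were also present: erythroid genes summed to 3376 CPM in resting wt, 20380 CPM in resting Eμ-deficient and 3906 CPM in resting 3′RR-deficient cells against 52.9 to 672 CPM with LPS, and 7 of 7 tested were lower with LPS and higher in Eμ-deficient mice by the additive model described below. Myeloid genes summed to 165.7 to 397.3 CPM in resting and 25.8 to 41.7 CPM in LPS libraries, with Ly6g at 0 throughout, and T-cell genes to 17.9 to 37.6 and 0.91 to 6.18 CPM. Follicular and marginal zone genes summed to 1221 to 1478 CPM in resting and 386.7 to 408.5 CPM in LPS libraries, with 7 of 8 called lower with LPS. Of 8 plasma cell genes 4 were called higher with LPS. The sum of all 8 was 603.5 CPM in resting wt, 2343 CPM in resting Eμ-deficient and 669.5 CPM in resting 3′RR-deficient cells. With LPS the sum was 840.1, 2039 and 1231 CPM, respectively. Jchain, which was not called with LPS, made up 1734 CPM of the sum in resting Eμ-deficient cells. In bulk RNA, fewer cells of a type and less RNA per cell cannot be told apart.

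The question of the LPS comparison is how the balance of these genes differs between resting and activated B-cells. With LPS, Bcl2l1 rose 3.10-fold among the anti-apoptotic genes, both effector genes rose 1.79-fold (Bax) and 1.66-fold (Bak1), and among the BH3-only genes Bid rose 2.25-fold and Bbc3 2.09-fold while Pmaip1 fell 6.73-fold. Bcl2, Mcl1, Bcl2a1b and Bcl2l11 did not pass the test. The test was edgeR's quasi-likelihood F-test in an additive model of genotype and state over all 6 libraries. The error is the departure of the 3 genotypes from a common LPS effect, which edgeR moderates with information shared over all tested genes. SEs and p-values therefore do not rest on the departure of a single gene alone. P-values were adjusted by Benjamini and Hochberg over every tested gene, with a threshold of 0.05. The test called 6 of 10 members, 5 higher and 1 lower, where it called 40.8% of all 14600 genes, 19.7% higher and 21.1% lower. The median log2 fold change was 0.58 over the members and -0.07 over all genes. The resting and the LPS libraries did not overlap for 5 members, Bax, Bak1, Bbc3 and Bid higher and Pmaip1 lower, and for 52.3% of all genes. Without the LPS 3′RR-deficient library the model called 4 members, Bcl2l1, Bbc3, Bid and Pmaip1, and without the pair of Eμ-deficient libraries it called 3, Bcl2l1, Bid and Pmaip1. Without the pair of wt libraries it called 7, the same 6 and Bcl2 as lower. With scaling by the spike-in total, which lowered the median over all genes to -0.28 and the share of higher calls among all calls from 48.4% to 33.4%, it called 2 members, Bcl2l1 and Pmaip1.

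**Figure D1:**
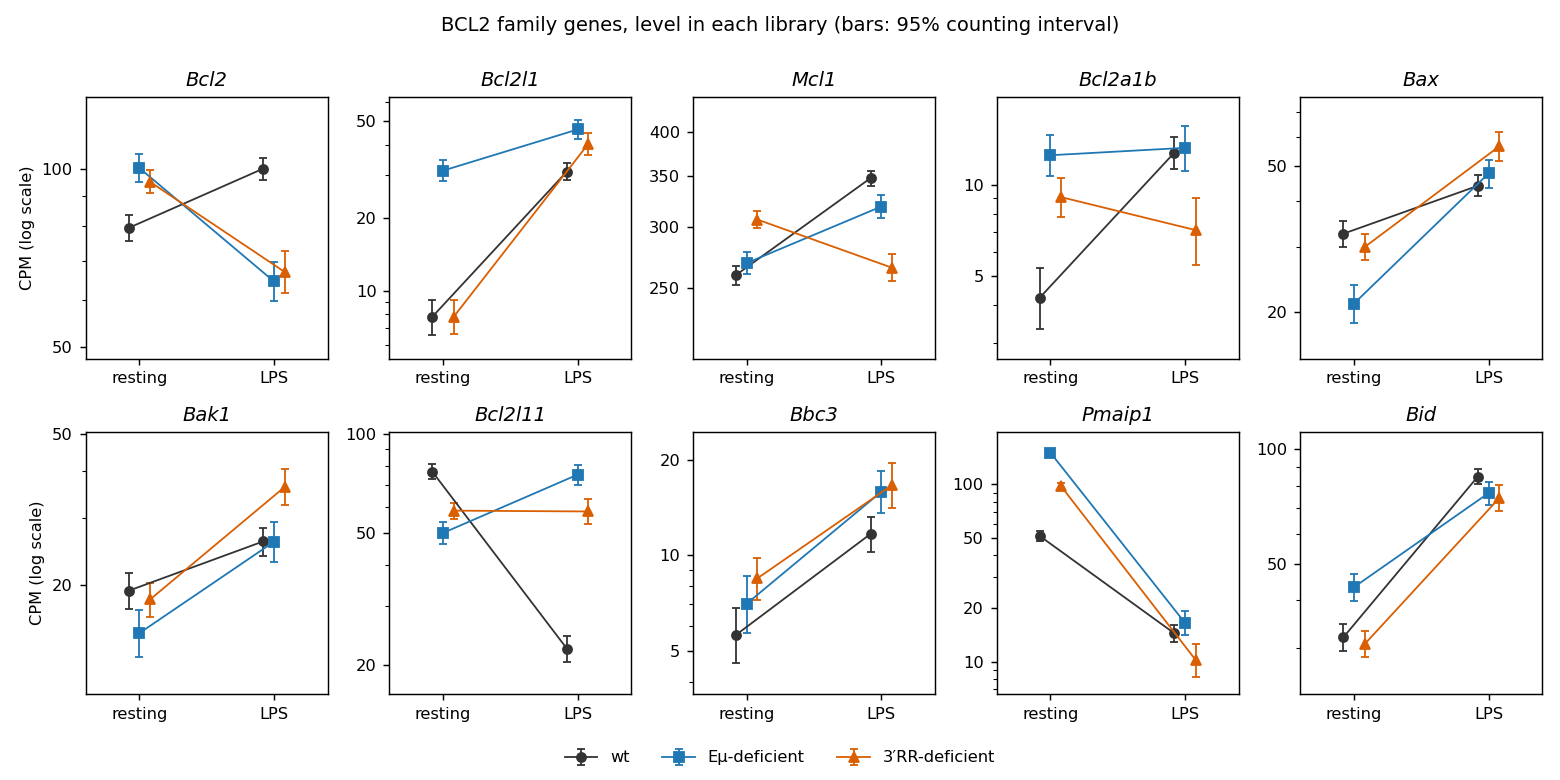
Level of each of the 10 genes in CPM on a logarithmic axis whose range differs between panels, in resting and LPS libraries of wt (circles), Eμ-deficient (squares) and 3′RR-deficient mice (triangles), with lines joining the libraries of a genotype and bars giving 95% Poisson counting intervals. The 3 lines run upwards for Bcl2l1, Bax, Bak1, Bbc3 and Bid and downwards for Pmaip1, and their directions differ between genotypes for Bcl2, Mcl1, Bcl2a1b and Bcl2l11.

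Among the anti-apoptotic genes, Bcl2l1 (ENSMUSG00000007659, chr2:152780668-152831728) was at 7.81 CPM in resting wt, 31.2 CPM in resting Eμ-deficient and 7.83 CPM in resting 3′RR-deficient cells, and at 31.0, 46.2 and 40.3 CPM with LPS, respectively. Resting wt and 3′RR-deficient cells were alike and low, and the resting Eμ-deficient library reached the level of the LPS wt library, so that the groups overlapped. The log2 ratio of LPS over resting was 1.99 (95% interval 1.72 to 2.26) in wt, 2.37 (2.09 to 2.64) in 3′RR-deficient and 0.56 (0.37 to 0.76) in Eμ-deficient mice. Bcl2l1 was higher with LPS in 3 of 3 genotypes, and the model gave a log2 fold change of 1.63 ± 0.35 (SE; adjusted p = 0.00618). It stayed past the threshold in 11 of 12 alternative settings, the exception being the fit without the genotype term (adjusted p = 0.0904). Bcl2l1 is known to be abundant in maturing red cells, the resting Eμ-deficient library with its raised Bcl2l1 held the 20380 CPM of erythroid transcripts, and the part of these cells in the level was not tested.

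Bcl2 (ENSMUSG00000057329, chr1:106538178-106714274), the founding survival gene of the family, was at 79.4 CPM in resting wt, 100.3 CPM in resting Eμ-deficient and 94.97 CPM in resting 3′RR-deficient cells, and at 99.997, 64.5 and 66.9 CPM with LPS. Both mutants were above wt at rest and below it with LPS, but not in every case with scaling by the spike-in total. With that scaling, the log2 ratio of Eμ-deficient over wt cells at rest was -0.48. For 3′RR-deficient over wt cells, it went from 0.26 to 0.01 at rest and from -0.58 to -0.03 with LPS. The log2 ratio of LPS over resting was 0.33 (0.23 to 0.43) in wt, which became -0.46 with scaling by the spike-in total, against -0.64 (-0.77 to -0.50) in Eμ-deficient and -0.50 (-0.64 to -0.37) in 3′RR-deficient mice. The model gave -0.27 ± 0.26 (SE; adjusted p = 0.436), and without the wt libraries -0.55 (adjusted p = 0.0348).

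Mcl1 (ENSMUSG00000038612, chr3:95658788-95663176), which encodes a short-lived protein that is replaced continuously, varied least of the 10 genes between libraries, by 1.34-fold from the lowest to the highest. It was at 259.6 CPM in resting wt, 269.2 CPM in resting Eμ-deficient and 307.0 CPM in resting 3′RR-deficient cells, and at 347.9, 319.3 and 265.4 CPM with LPS. The LPS library was the higher one in wt and Eμ-deficient and the lower one in 3′RR-deficient mice, although the log2 ratio in wt, 0.42, became -0.37 with scaling by the spike-in total. The model gave 0.15 ± 0.26 (SE; adjusted p = 0.664), and the sign turned with scaling by the spike-in total.

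Bcl2a1b (ENSMUSG00000089929, chr9:89199209-89207827) was at 4.24 CPM in resting wt, 12.5 CPM in resting Eμ-deficient and 9.09 CPM in resting 3′RR-deficient cells, and at 12.7, 13.2 and 7.08 CPM with LPS. Resting wt was the lowest of the 6 libraries, and LPS wt and both Eμ-deficient libraries did not differ beyond counting error. The model gave 0.43 ± 0.38 (SE; adjusted p = 0.393). Because the copies shown above can exchange reads, their sum is the firmer value: Bcl2a1a, Bcl2a1b and Bcl2a1d together were at 21.7, 56.1 and 27.1 CPM at rest and at 78.0, 86.2 and 46.2 CPM with LPS in wt, Eμ-deficient and 3′RR-deficient cells. The sum was higher with LPS in 3 of 3 genotypes, by 1.84, 0.62 and 0.77 on the log2 scale. Bcl2a1b held 15.3% to 33.6% of it and Bcl2a1d 55.3% to 81.8%. Of the copies, Bcl2a1d rose (log2 fold change 1.43 ± 0.28, SE; edgeR adjusted p = 0.00384), and Bcl2a1a was not called (-0.21 ± 0.36; edgeR adjusted p = 0.675).

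Among the effector genes, Bax (ENSMUSG00000003873, chr7:45461697-45466898) was at 32.7 CPM in resting wt, 21.1 CPM in resting Eμ-deficient and 30.1 CPM in resting 3′RR-deficient cells, and at 44.1, 47.7 and 56.5 CPM with LPS. Bak1 (ENSMUSG00000057789, chr17:27019810-27029009) was at 19.4, 15.0 and 18.4 CPM at rest and at 26.1, 26.04 and 36.3 CPM with LPS. For both genes every LPS library was above every resting library, the resting Eμ-deficient library was the lowest and the LPS 3′RR-deficient library the highest. Counting intervals overlapped between the LPS 3′RR-deficient and LPS Eμ-deficient libraries for Bax. They also overlapped between the resting Eμ-deficient and resting 3′RR-deficient libraries for Bak1. After correction for GC content, the LPS 3′RR-deficient library lay below LPS wt for both, with log2 ratios of -0.26 (Bax) and -0.12 (Bak1). With this correction the resting Eμ-deficient library was level with wt for Bak1 (0.0011). For Bax its log2 ratio over wt went from -0.63 to -0.18. The model gave 0.84 ± 0.24 (SE; adjusted p = 0.0207) for Bax and 0.74 ± 0.23 (adjusted p = 0.0319) for Bak1. These are the least firm of the 6 calls: Bax passed in 7 and Bak1 in 6 of 12 alternative settings, the adjusted p-values reached 0.300 and 0.391, and without the LPS 3′RR-deficient library they were 0.0784 and 0.184. With scaling by the spike-in total the log2 ratio within wt, 0.43 for each gene, became -0.36 for each gene, while the model's log2 fold changes remained positive at 0.64 and 0.53.

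Among the BH3-only genes, Pmaip1 (ENSMUSG00000024521, chr18:66458533-66465565) was at 51.3 CPM in resting wt, 151.2 CPM in resting Eμ-deficient and 97.6 CPM in resting 3′RR-deficient cells, and at 14.5, 16.6 and 10.2 CPM with LPS. Every LPS library was below every resting library, and the libraries spanned 14.8-fold, the widest range of the 10 genes. The log2 ratio of LPS over resting was -1.82 (-2.02 to -1.64) in wt, -3.19 (-3.42 to -2.97) in Eμ-deficient and -3.26 (-3.57 to -2.95) in 3′RR-deficient mice. These lie outside the range of the spike-in ratios in each genotype, which reached down to -1.26, -0.24 and -1.37. The model gave -2.75 ± 0.33 (SE; adjusted p = 0.000372), and Pmaip1 passed in 12 of 12 alternative settings. The erythroid, myeloid, T-cell and follicular and marginal zone genes listed above were lower with LPS too, and their part in the fall of Pmaip1 was not tested.

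Bid (ENSMUSG00000004446, chr6:120891930-120916853) was at 32.0 CPM in resting wt, 43.4 CPM in resting Eμ-deficient and 30.7 CPM in resting 3′RR-deficient cells, and at 84.8, 76.7 and 74.5 CPM with LPS. The LPS libraries were close together and all above the resting ones. The model gave 1.17 ± 0.23 (SE; adjusted p = 0.00411), past the threshold in 11 of 12 alternative settings. Bbc3 (ENSMUSG00000002083, chr7:16308393-16318205) was at 5.61, 7.04 and 8.46 CPM at rest and at 11.7, 15.8 and 16.6 CPM with LPS in wt, Eμ-deficient and 3′RR-deficient cells. Its log2 ratio was positive in the 3 genotypes, at 1.06, 1.17 and 0.98, and these values spread to 0.26, 1.34 and 0.97 with scaling by the spike-in total and to 1.52, 1.10 and 0.89 after correction for GC content. The model gave 1.07 ± 0.25 (SE; adjusted p = 0.00920), past the threshold in 10 of 12 settings.

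Bcl2l11 (ENSMUSG00000027381, chr2:128126038-128162547) was the member whose LPS ratio differed most between genotypes. It was at 76.8 CPM in resting wt, 50.1 CPM in resting Eμ-deficient and 58.5 CPM in resting 3′RR-deficient cells, and at 22.4, 75.2 and 58.2 CPM with LPS. Resting wt was the highest and LPS wt the lowest of the 6 libraries, whereas the LPS level in Eμ-deficient cells was that of resting wt and the 3′RR-deficient libraries were level with each other. The log2 ratio of LPS over resting was -1.78 (-1.93 to -1.63) in wt, 0.59 (0.44 to 0.74) in Eμ-deficient and -0.01 (-0.16 to 0.14) in 3′RR-deficient mice. The ratios of wt and of Eμ-deficient cells lie outside their spike-in ranges of -1.26 to 1.70 and -0.24 to 0.29. The model, which assumes 1 LPS effect for all genotypes, gave -0.38 ± 0.41 (SE; adjusted p = 0.485), and the difference between genotypes was not tested, since no residual would remain.

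**Figure D2:**
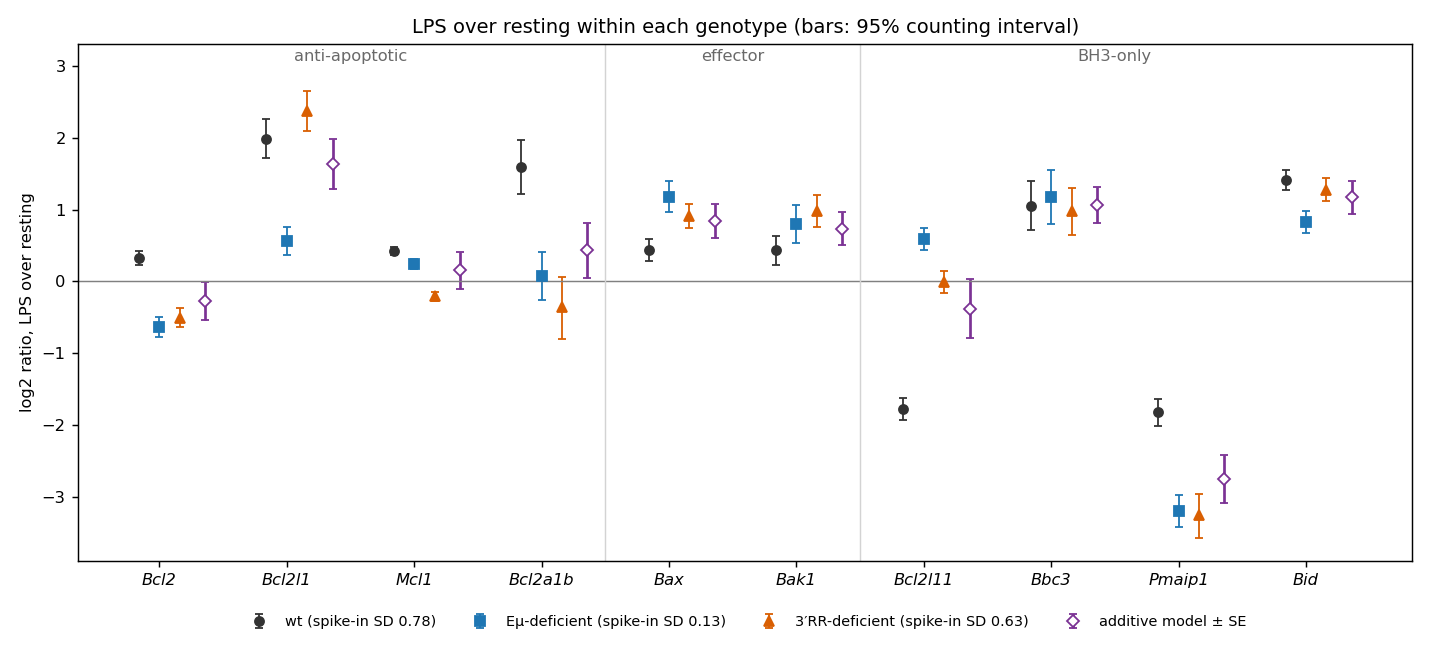
Log2 ratio of CPM, LPS over resting, of each gene within wt (circles), Eμ-deficient (squares) and 3′RR-deficient mice (triangles) with 95% counting intervals, and the log2 fold change of the additive model with its SE (open diamonds). With TMM scaling the genotypes lie closest for Bbc3 (0.98 to 1.17), which spread from 0.26 to 1.34 with spike-in scaling, and farthest apart for Bcl2l11 (-1.78 to 0.59), and the spike-in SD of each pair of libraries stands in the legend.

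Levels of different genes were compared per kilobase of exon, as CPM per kb. Mcl1 was the highest of the 10 genes in all 6 libraries, at 76.0 to 101.8 CPM per kb. In resting cells Pmaip1 came next in both mutants, with 55.3 CPM per kb in Eμ-deficient and 35.7 CPM per kb in 3′RR-deficient cells, and in wt Bax (20.7 CPM per kb) and Pmaip1 (18.8 CPM per kb) followed with overlapping counting intervals. With LPS, Bax was second of the 10 at 28.0 to 35.9 CPM per kb. Bid came next at 20.98 to 23.9 CPM per kb in every genotype. The copy Bcl2a1d, which is not among the 10, lay above Bax in every LPS library. It was at 71.6 CPM per kb in wt, 74.3 in Eμ-deficient and 43.7 in 3′RR-deficient cells with LPS. The place of Bcl2a1b alone is therefore not that of the copies together. Pmaip1 was then the last of the 10 in both mutants, at 6.07 and 3.74 CPM per kb, and in wt it was followed only by Bcl2l11 at 2.79 CPM per kb. Bcl2l1 moved from the last place in resting wt and 3′RR-deficient cells, at 1.70 and 1.71 CPM per kb, to between the fifth and the seventh place with LPS.

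The genotype comparisons ask whether loss of either IgH enhancer goes along with another level of these genes. By the same model 0 of 10 members were called in 3′RR-deficient against wt mice, where 0.678% of all genes were called, and 0 of 10 in Eμ-deficient against wt mice, where 1.16% of all genes were called. At an unadjusted p under 0.05 there were 0 of 10 members for 3′RR-deficient and 1 of 10 for Eμ-deficient mice, beside 5.69% and 8.68% of all genes, and the DESeq2 Wald test called 0 and 0. That 1 member was Bcl2l1, with a log2 fold change of 1.36 ± 0.42 (SE) in Eμ-deficient against wt mice and an edgeR adjusted p of 0.253, which became 0.00950 without the filter on low counts. The next was Pmaip1 in Eμ-deficient mice at 0.84 ± 0.38 (edgeR adjusted p = 0.600). For 3′RR-deficient mice the log2 fold changes of the 10 members lay between -0.19 and 0.55, with Bbc3 the highest.

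Within a state, where each genotype has 1 library and no test can be made, the largest ratios were those of Bcl2l1, Bcl2l11, Pmaip1 and Bcl2a1b. In resting Eμ-deficient over wt cells the log2 ratio was 2.00 (1.72 to 2.29) for Bcl2l1, 1.56 (1.45 to 1.67) for Pmaip1 and 1.56 (1.16 to 1.97) for Bcl2a1b, all above the highest spike-in ratio of 1.13. With scaling by the spike-in total they were 1.19, 0.75 and 0.75, so that only Bcl2l1 stayed above it. That library also held the highest sums of erythroid, myeloid, T-cell, plasma cell and follicular and marginal zone transcripts, among them Jchain at 1734 CPM against 113.1 CPM in resting wt (edgeR adjusted p = 0.00748 for Eμ-deficient against wt), and their part in these ratios was not tested. In resting 3′RR-deficient over wt cells, Bcl2a1b at 1.10 (0.71 to 1.504) and Pmaip1 at 0.93 (0.82 to 1.04) lay above the highest spike-in ratio of 0.34, while the sum of the Bcl2a1 copies gave 0.32. With LPS, Bcl2l11 was higher than in wt by 1.75 (1.58 to 1.92) on the log2 scale in Eμ-deficient cells, above the highest spike-in ratio of 0.98, and by 1.38 (1.20 to 1.56) in 3′RR-deficient cells, inside the spike-in range of that pair. At rest the same gene was lower than in wt in both mutants, with ratios of -0.62 (-0.75 to -0.48) and -0.39 (-0.51 to -0.28). Both mutants are compared with the same wt library in each state, so that a wt library that lies low or high moves both ratios alike.

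**Figure D3:**
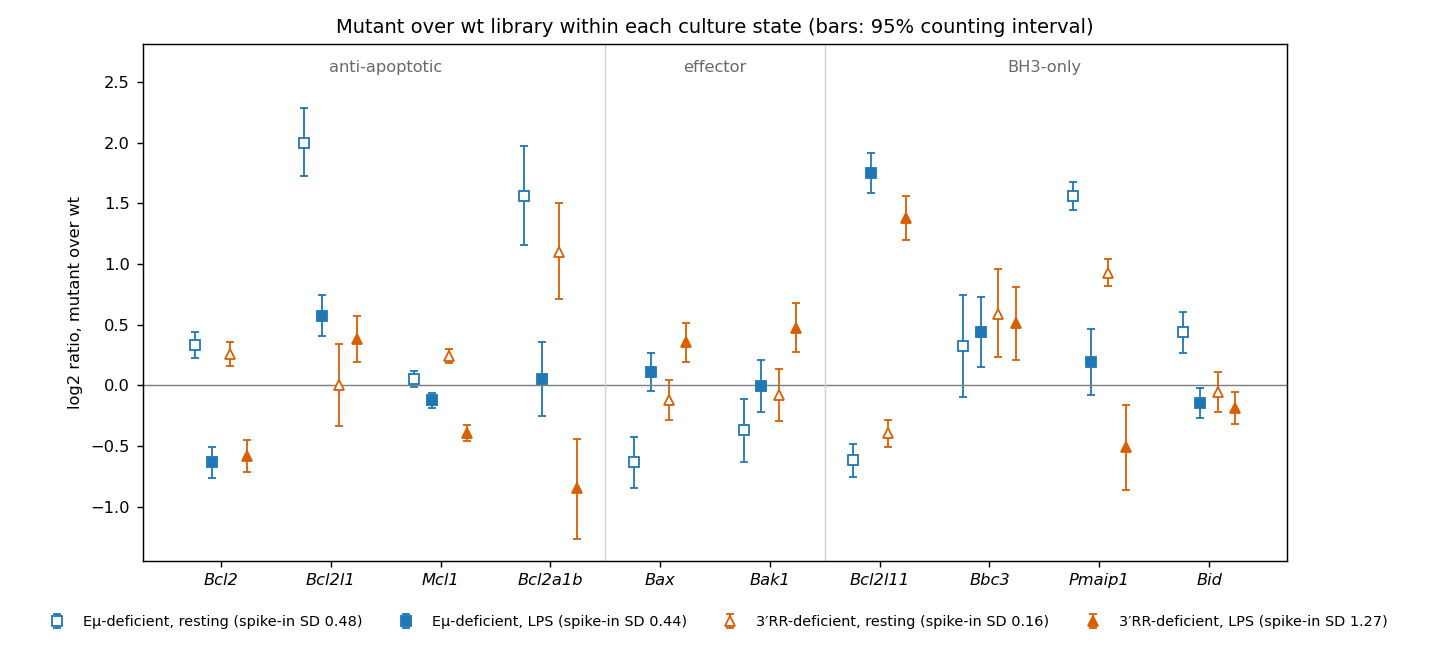
Log2 ratio of CPM of each mutant over wt for each gene, Eμ-deficient (squares) and 3′RR-deficient (triangles), in resting (open) and LPS libraries (filled), with 95% counting intervals. For Bcl2l11 both filled symbols lie above 0 (1.75 and 1.38) and both open symbols below 0 (-0.62 and -0.39), and for Bcl2l1 and Pmaip1 the resting Eμ-deficient library lies highest (2.00 and 1.56).

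The other genes of the pathway were taken from 4 lists with 61 genes, of which 55 were tested. With LPS 16 rose, 9 fell and 30 did not pass, so that 45.5% were called beside the 40.8% of all genes. Of the other BCL2 family genes, 9 of 14 were tested. Bcl2a1d and Bcl2l2, which encodes the survival protein BCL-W, rose (Bcl2l2 by 0.90 ± 0.26 on the log2 scale, edgeR adjusted p = 0.0229), Bmf, a BH3-only gene, fell by 1.34 on the log2 scale (SE 0.23, adjusted p = 0.00204), and 6 did not pass. Bcl2a1c had 0 counts in every library.

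Of the caspases, the apoptosome and their inhibitors, 7 of 16 rose and 2 fell. Birc5, which encodes survivin, a protein of dividing cells that also inhibits apoptosis, rose most, from 3.03 to 9.31 CPM at rest to 53.5 to 66.3 CPM with LPS (log2 fold change 3.48 ± 0.37). Cycs, the gene of cytochrome c, rose by 2.49 ± 0.37, while Casp6, an executioner caspase, fell by 1.67 and Birc3, an inhibitor downstream of NF-κB, fell by 0.86 on the log2 scale. Genes of proliferation, 10 of 10 of which rose, moved with them, from 215.6 to 377.3 CPM in sum at rest to 1901 to 2227 CPM with LPS. Of the death receptor genes, 1 of 8 rose, Tnfrsf10b (1.39 ± 0.31), which encodes the TRAIL receptor, and 1 fell, Tnfrsf1a (-4.25 ± 0.58), which encodes TNF receptor 1. Tnfrsf1a was at 5.05 to 9.004 CPM at rest and at 0.94 CPM or less with LPS. The sums of the myeloid, erythroid, T-cell and follicular and marginal zone genes were lower with LPS too. The part of these cells in the fall of Tnfrsf1a was not tested.

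Of the regulators of the family, 6 of 22 tested rose and 5 fell. Trp73, a relative of p53, rose by 4.74 ± 0.47 on the log2 scale from 0.34 CPM or less at rest to 2.77, 3.47 and 13.7 CPM with LPS in wt, Eμ-deficient and 3′RR-deficient cells. Pim2, a survival kinase, rose by 2.41 ± 0.28 and E2f1, a factor of cell cycle entry, by 1.63 ± 0.29. Ddit3, a stress factor known as CHOP, fell by 2.96 on the log2 scale, Rel, an NF-κB subunit, fell by 1.90 and Myc, a driver of growth, fell by 1.60. The forkhead genes Foxo1 and Foxo3, known activators of Bcl2l11 and Bbc3, completed the 5, with log2 fold changes of -1.34 ± 0.30 and -1.43 ± 0.22 (edgeR adjusted p = 0.00678 and 0.00128), and are named after their values were seen.

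**Figure D4:**
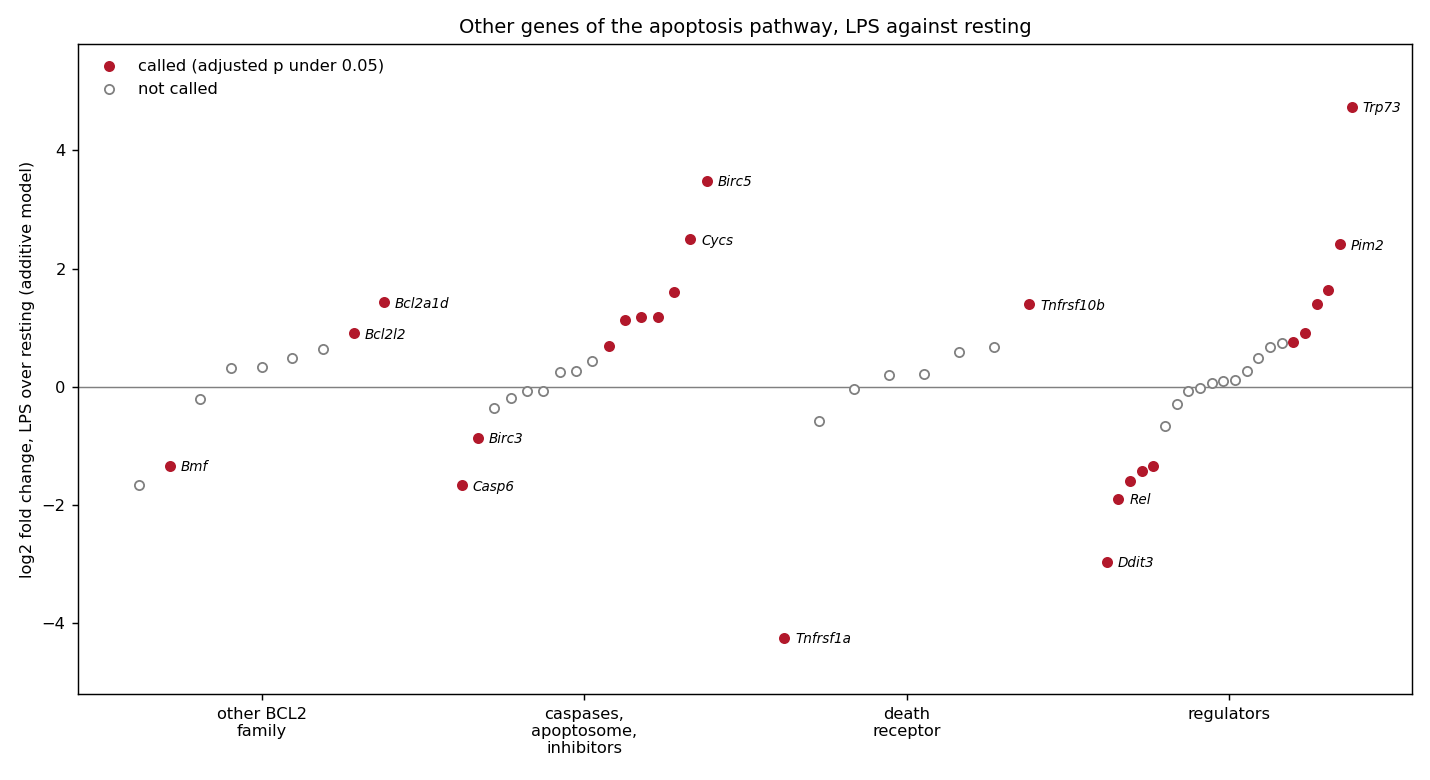
Log2 fold change of LPS over resting from the additive model for each tested gene of the 4 lists, called genes filled and the others open, ordered by value within a list, with up to 2 called genes named in each direction. The called genes span from -4.25 (Tnfrsf1a) to 4.74 (Trp73).

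Promoter windows, 250 bases before to 50 bases after a transcription start (RefSeq, GRCm38.p6), were given for 9 of 10 members in 14 windows. They were searched on both strands for 7 motifs, of which a forkhead motif, TGTTTAC, and an E-box, CACGTG, the letters bound by MYC and its partners, are described first and do not overlap each other. The forkhead letters were in 1 window each of Bcl2l11 and Bbc3 and in 3.65% of all 32851 windows, and those windows are shown because these are the BH3-only genes that forkhead factors are known to act on, with the motif in capitals (in Bcl2l11 on the other strand).
Bcl2l11 (chr2:128125788-128126087, plus strand): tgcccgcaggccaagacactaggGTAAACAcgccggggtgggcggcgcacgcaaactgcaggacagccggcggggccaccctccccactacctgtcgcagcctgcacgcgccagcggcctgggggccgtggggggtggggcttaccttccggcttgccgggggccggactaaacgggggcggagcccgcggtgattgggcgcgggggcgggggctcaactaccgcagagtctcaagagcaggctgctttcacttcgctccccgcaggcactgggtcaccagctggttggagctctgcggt
Bbc3 (chr7:16310011-16310310, plus strand): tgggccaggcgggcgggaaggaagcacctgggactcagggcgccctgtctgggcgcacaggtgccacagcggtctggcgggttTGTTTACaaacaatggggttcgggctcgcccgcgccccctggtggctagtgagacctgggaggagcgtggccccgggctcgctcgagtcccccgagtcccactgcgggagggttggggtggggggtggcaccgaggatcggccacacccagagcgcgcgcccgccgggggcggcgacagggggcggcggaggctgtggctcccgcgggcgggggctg
The match starts at base 24 of the Bcl2l11 window and at base 84 of the Bbc3 window. Bbc3 rose with LPS in all genotypes and Bcl2l11 did not pass the test, and a link between any of the motifs and the levels was not tested. The E-box letters were in windows of Bax and Bbc3 and in 7.15% of all windows. Of the other motifs, the GC box GGGCGG was in windows of 7 members (35.7% of all windows), the ETS letters CCGGAAG in Bcl2l1, Bcl2l11 and Mcl1 (8.86%), the kappaB motif in Bbc3 and Bcl2l1 (8.46%) and the p53 half-site in Bax (8.36%), while the CRE letters TGACGTCA were in 0 members (1.79%). The percentages are shares of single windows, whereas a member is named when any of its windows matches, and 9 members have 14 windows. The 2 measures are therefore not directly comparable. A match of letters is a description and not a binding site.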

How the data were processed

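The authors sequenced ribosomal RNA-depleted, stranded total RNA libraries in pairs of 150 nt, used STAR 2.4.0a with mm10 and Ensembl release 77 for mapping, and obtained fragment counts by gene name from featureCounts (Subread 1.4.6-p1), in which reads with several alignments were kept. The deposited table holds these raw counts for 47055 names. Of these, 92 are spike-in RNAs, 4.75% to 7.10% of the counts of a library, which entered neither library sizes nor tests. The labels and the study's methods differ on the number of pools per genotype and on the RNA extraction, and 1 library per genotype and state was analysed here. Where the labels do not say that libraries come from separate cultures, p-values measure only the spread between these libraries.

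The 10 genes and the lists of other genes were chosen with earlier results of these data known. Counts were scaled with TMM (edgeR 4.0.16, R 4.3.3; factors 0.951 to 1.13). Genes that reached 10 counts in 2 or more libraries entered edgeR's quasi-likelihood F-test with genotype and state as additive terms. That design leaves 2 residual degrees of freedom, and edgeR moderated the error of each gene with information shared over all tested genes. P-values were adjusted by Benjamini and Hochberg over 14600 genes. An exact permutation test of 3 against 3 libraries cannot go below p = 0.1 and was not used. The SE is the log2 fold change divided by the square root of F. Library ratios carry exact conditional binomial (Clopper-Pearson) 95% intervals (scipy 1.17.1), and amplified reads are not independent molecules, so that intervals cover counting error only. Spike-in ratios, each relative to the spike-ins' own total, were taken over those that reached 100 counts in all 6 libraries. Text names all 10 genes, the copies of Bcl2a1b, and in each other list up to 3 called genes in each direction with the largest changes, of which 1 is not reported here. Gene positions, lengths and coding sequences are those of GENCODE M21 (GRCm38), and promoter windows are those of RefSeq. Alternatives were other scalings, the Wald test of DESeq2 1.42.0, a stricter or no count filter, removal of a trend on GC content (known for 95.8% of the tested genes), no genotype term, and leaving out libraries.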

Additional observations from a re-analysis of the deposited data

Results flagged for a closer look

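The values here are differences of log2 ratios between genotypes or states in which the compared libraries moved in opposite directions. Each rests on 1 library per genotype and state, and none of these differences was tested. For Bcl2, the LPS over resting ratio differed from that of wt by -0.97 in Eμ-deficient and by -0.84 in 3′RR-deficient mice, and the same values, -0.97 and -0.84, are the difference between the LPS and the resting ratio of each mutant over wt. For Mcl1, the LPS over resting ratio in 3′RR-deficient mice differed by -0.63 from that in wt and by -0.46 from that in Eμ-deficient mice, and the 3′RR-deficient over wt ratio differed by -0.63 between LPS and rest. For Bcl2l11, the LPS over resting ratio in Eμ-deficient mice exceeded that in wt by 2.37, which is also the difference between LPS and rest of the Eμ-deficient over wt ratio, and for 3′RR-deficient over wt that difference was 1.77. The 3′RR-deficient over wt ratio differed between LPS and rest by -1.95 for Bcl2a1b and by -1.43 for Pmaip1. The Eμ-deficient over wt ratio differed by -0.58 for Bid. For Bcl2a1b alone the 3′RR-deficient over wt ratio was 1.10 at rest and -0.85 with LPS. For the sum of the Bcl2a1 copies, the firmer value, it was 0.32 at rest and -0.76 with LPS. Scaling by the spike-in total changed most of the differences. The differences of Bcl2 became -0.0052 (Eμ-deficient) and -0.04 (3′RR-deficient), and its LPS over resting ratio was then negative in all 3 genotypes. Those of Mcl1 between 3′RR-deficient and wt turned to 0.16, and that of Bid turned to 0.38. Pmaip1 gave -0.64, with ratios no longer on opposite sides of 0, Bcl2a1b gave -1.15, and Mcl1 in 3′RR-deficient against Eμ-deficient mice gave -0.63. Those of Bcl2l11 grew to 3.33 and 2.57. In the other settings (total gene count, DESeq2 size factors, GC correction and log2(CPM + 1)), all 13 differences kept their sign. With GC correction, however, the 3′RR-deficient over wt ratios of Pmaip1, 0.06 with LPS and 0.85 at rest, were not on opposite sides of 0 either. The pair of LPS 3′RR-deficient and LPS wt libraries, on which the LPS ratios of that mutant over wt rest, had the widest spread of spike-in ratios, with an SD of 1.27.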

How the results depend on the processing

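Of 300 values of members under alternatives to the test, 271 kept their direction and side of the threshold, 15 missed the threshold, 2 passed it and 12 turned their sign. Only a called value can miss the threshold, so that the 15 were all LPS effects of the 6 called members. Of 12 alternative settings each, Bak1 passed in 6, Bax in 7, Bbc3 in 10, Bcl2l1 and Bid in 11 and Pmaip1 in 12. The 6 members called for LPS became 2 with scaling by the spike-in total and 3 without the Eμ-deficient libraries, and were 4 to 7 in the other settings. The 0 members called for Eμ-deficient mice became 1 without a filter on low counts. Over all genes the spike-in scaling moved the median LPS effect from -0.07 to -0.28 and the share of higher calls from 48.4% to 33.4%, and without a filter that median was 0.16. Signs turned for the LPS effect of Bcl2 without the Eμ-deficient libraries (0.0071), of Mcl1 with spike-in scaling (-0.0568), and of Bcl2a1b (-0.1091) and Bcl2l11 (0.3115) without the wt libraries. For 3′RR-deficient mice they turned without the LPS 3′RR-deficient library for Bcl2l1 (-0.414) and Mcl1 (0.1963), with spike-in scaling for Mcl1 (0.0713) and Bid (0.0289), and with the GC trend removed for Bcl2l1 (-0.0724), Bax (-0.183) and Bak1 (-0.0631). For Eμ-deficient mice Bid turned with spike-in scaling (-0.1937). Of the 70 library ratios, 45 were positive. Spike-in scaling turned 12 whose interval excluded 0, namely LPS over resting in wt for Bcl2 (-0.4617), Mcl1 (-0.3718), Bax (-0.3607) and Bak1 (-0.3632), Eμ-deficient over wt at rest for Bcl2 (-0.4775) and Bid (-0.3734) and with LPS for Mcl1 (0.0254) and Bid (0.0045), and 3′RR-deficient over wt at rest for Mcl1 (-0.0030) and with LPS for Mcl1 (0.1584), Pmaip1 (0.0460) and Bid (0.3614). Removing the GC trend turned 6, namely 3′RR-deficient over wt with LPS for Bcl2l1 (-0.1551), Bax (-0.2612), Bak1 (-0.1156), Bbc3 (-0.0467) and Pmaip1 (0.0576), and Eμ-deficient over wt at rest for Bak1 (0.0011). The cause was not tested. The genotype term of the model pairs the 2 libraries of a genotype, and without it 5 members were called. The labels carry no replicate numbers for any other pairing. The precision of Bbc3, Bcl2a1b and resting Bcl2l1 is limited by their low counts.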

Other observations

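For each of the 10 genes, the tested gene with the most similar pattern was found by the root mean square difference of log2 CPM over the 6 libraries, each gene centred on its own mean. The pairs were Bcl2 and 1700113A16Rik (0.078), Bcl2l1 and Dapk2 (0.12), Mcl1 and Pak2 (0.038), Bcl2a1b and Gm27010 (0.077), Bax and Zfp553 (0.049), Bak1 and Gnb1 (0.042), Bcl2l11 and Met (0.11), Bbc3 and Gm5805 (0.075), Pmaip1 and Gm5129 (0.14), and Bid and Rnf219 (0.081). Among the 10 genes themselves, Bax and Bak1 were the most alike (0.12), and Pmaip1 was the farthest from its nearest member, Bcl2 (1.31). Met, the nearest to Bcl2l11, was at 0.94 CPM in resting wt and 0.19 CPM in LPS wt cells and at 0.45 and 0.84 CPM in the Eμ-deficient libraries, and at 0.73 and 0.67 CPM in the 3′RR-deficient libraries. Gm5129, the nearest to Pmaip1, was at 0.14, 0.19 and 0.11 CPM with LPS in wt, Eμ-deficient and 3′RR-deficient cells. At levels as low as those of Gm5129 and Met, counting error weighs on the match. All these pairs are descriptions over 6 points, with no test.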
